A study of Homo sapiens with 6 samples.

Results

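The MHC class I antigen presentation genes were examined in H226 cells, an established line of human lung squamous carcinoma, after knockdown of the long noncoding RNA *SWINGN* (*LINC00565* in the sample labels). The rule took every row of the count table named *HLA-B*, *HLA-C*, *HLA-E*, *HLA-F*, *B2M*, *TAP1*, *TAP2*, *TAPBP* or *ERAP1*. All 9 genes were found among the 17222 gene names of the table, and all 9 passed the filter on low counts. RNA was sequenced from 3 libraries of cells transfected with a control antisense oligonucleotide, ASO_CTRL, and from 3 libraries of cells transfected with ASO_LINC#3, each collected 48 h after transient transfection. The knockdown group thus rests on a single oligonucleotide and a single time point. The level of *SWINGN* was not analysed here, and whether the oligonucleotide lowered it is therefore unchecked. The sample labels, the study's results text and its legend of this experiment give the cells as H226, and only its sequencing methods speak of BJ fibroblasts, so the libraries are taken as H226. The labels do not say whether the libraries of a group came from separate cultures, so the p-values measure the spread between these libraries only.

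MHC class I molecules display short peptides from inside the cell to cytotoxic T cells and natural killer cells. Proteasomes cut proteins into peptides, the *TAP1* and *TAP2* transporter carries them into the endoplasmic reticulum, aminopeptidases such as *ERAP1* trim them, and tapasin (*TAPBP*) assists their loading onto a heavy chain paired with beta-2-microglobulin (*B2M*). Interferons induce most of these genes together, and tumours often lower their expression. Of the members, 7 lie in the MHC region of chromosome 6, between positions 29690552 and 33282061 of GRCh37, while *B2M* lies on chromosome 15 and *ERAP1* on chromosome 5.

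The upstream regions of class I genes share short elements that bind NF-kB, interferon regulatory factors, CREB and ATF factors, and the CCAAT-binding factor NF-Y. The stretches below hold those elements for some of the members, which behaved differently in the knockdown libraries, and for *PSMB9*, a neighbour of *TAP1* that is not a member. Those of *TAP2* and *ERAP1* are not shown. The sequences are RefSeq promoters (GRCh38.p14) that matched GRCh37 exactly at the positions given, and 8 of the 9 members had an entry, all but *HLA-E*. Capitals mark matches, on either strand, to GGGNNTTCC or GGNNTTTCC (NF-kB), GAANNGAAA or GAAANNGAA (interferon response), TGACG (CREB and ATF) or CCAAT. Neighbouring matches may overlap and then form a single run of capitals.
HLA-B, chr6:31325002-31325139, minus strand: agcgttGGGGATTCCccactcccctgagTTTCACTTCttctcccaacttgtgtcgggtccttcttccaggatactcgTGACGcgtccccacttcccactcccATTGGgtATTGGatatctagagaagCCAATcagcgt
HLA-C, chr6:31239915-31240067, minus strand: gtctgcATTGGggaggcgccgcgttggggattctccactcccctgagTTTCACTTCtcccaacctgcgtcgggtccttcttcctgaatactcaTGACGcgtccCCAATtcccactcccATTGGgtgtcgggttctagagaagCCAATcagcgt
HLA-F, chr6:29691050-29691164, plus strand: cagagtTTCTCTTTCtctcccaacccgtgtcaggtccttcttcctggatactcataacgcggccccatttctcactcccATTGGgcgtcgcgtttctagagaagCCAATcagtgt
B2M, chr15:45003565-45003676, plus strand: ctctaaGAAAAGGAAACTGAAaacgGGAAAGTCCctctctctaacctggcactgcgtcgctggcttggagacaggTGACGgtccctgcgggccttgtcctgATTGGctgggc
TAP1, chr6:32821538-32821731, minus strand: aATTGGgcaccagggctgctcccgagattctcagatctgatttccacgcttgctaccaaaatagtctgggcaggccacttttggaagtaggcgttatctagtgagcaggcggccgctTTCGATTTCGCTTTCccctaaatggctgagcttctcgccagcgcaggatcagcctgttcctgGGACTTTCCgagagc
PSMB9, chr6:32821720-32821835, plus strand: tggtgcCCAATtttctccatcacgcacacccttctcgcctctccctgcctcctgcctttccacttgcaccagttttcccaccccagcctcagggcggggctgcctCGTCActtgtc
TAPBP, chr6:33281856-33281957, minus strand: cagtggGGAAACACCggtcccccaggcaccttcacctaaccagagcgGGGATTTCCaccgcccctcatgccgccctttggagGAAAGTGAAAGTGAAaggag
In the 250 bases before the start site, the NF-kB letters were held by 9.437% of 35116 promoters, the interferon response letters by 12.44%, TGACG by 21.22% and CCAAT by 32.01%. *HLA-B* held a match to each of the 4 elements, as did *B2M*. *HLA-C* carried 1 interferon response match, 1 TGACG and 4 CCAAT but no match to the NF-kB letters. *TAP1* held 1 NF-kB match and 2 overlapping interferon response matches, and *TAPBP* held 2 of each. The stretches of *TAP1* and *PSMB9* overlap, and the start sites of these genes face away from each other across them. The first ATTGG of *TAP1* and the CCAAT of *PSMB9* are the same site read on opposite strands. A match says only that the letters are in the window.

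None of the members was called differentially expressed after *SWINGN* knockdown. Calls needed an adjusted p-value below 0.01 together with a log2 fold change beyond 0.5. The p-values came from the quasi-likelihood F-test of edgeR and were adjusted by Benjamini and Hochberg's method over 14660 tested genes. By this rule 7.54% of all tested genes were called, 4.91% as higher and 2.63% as lower. The classical heavy chain *HLA-B* and the non-classical *HLA-E* had higher CPM in each knockdown library than in any control, and *TAP1* had lower ones. Groups that did not overlap were found in these 3 of 9 members, against 36.1% of all tested genes, and 2 of 9 were apart with the knockdown higher, against 18.7%. At an unadjusted p below 0.05 edgeR gave 2 of the 9 members, *HLA-B* and *HLA-E*, where 32.4% of all tested genes passed. DESeq2 and limma-voom gave the same number of members at that level and called 0. At an adjusted p below 0.05 with no bound on the fold, edgeR gave 1 member, *HLA-E*, where 18.0% of all genes passed. The median log2 fold change of the 9 members was 0.11, beside -0.0027 for all tested genes. In bulk RNA, fewer cells expressing a gene and less RNA per cell cannot be told apart.

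**Figure D1:**
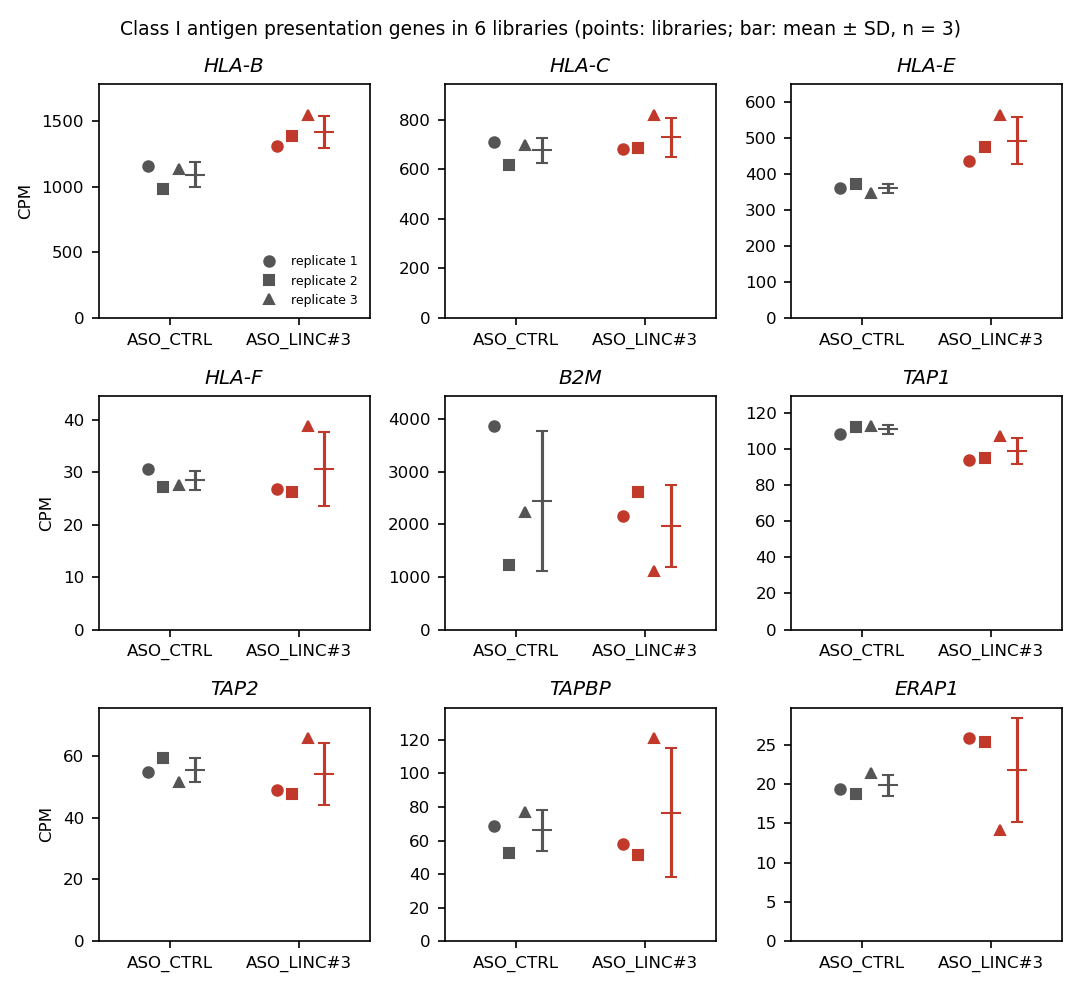
CPM (read counts scaled to library size, linear axis from 0) of the 9 genes in 3 ASO_CTRL and 3 ASO_LINC#3 libraries; points are libraries, with the replicate number as the symbol, and bars are the mean ± SD. *HLA-B* and *HLA-E* are higher in every knockdown library and *TAP1* lower, while *B2M* ranges from 1222 to 3856 CPM within the control group.

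The libraries differed in depth and in composition. The reads counted on genes were between 5738340 and 10546786 in the controls and between 3686828 and 6780016 in the knockdown, the fewest in ASO_LINC#3 replicate 3. This library also stood apart from its group. Its log2 CPM rose with the GC content of the transcript by 0.21 per 10% of GC, whereas the slopes were -0.12 and -0.16 in ASO_LINC#3 replicates 1 and 2 and between -0.0082 and 0.049 in the controls. All pairs of libraries within a group differed beyond sampling noise, with a chi-square per degree of freedom from 2.62 to 14.8. Without ASO_LINC#3 replicate 3, 17.2% of 15176 tested genes were called, and the number of members called was again 0.

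*HLA-B*, a classical heavy chain that presents peptides to CD8+ T cells, was at 1158, 986 and 1135 CPM, which are read counts scaled to library size, in the controls and at 1307, 1390 and 1547 CPM in the knockdown libraries (replicates 1, 2 and 3 in this order here and below). All knockdown libraries were above all controls, with means of 1093 ± 93.2 and 1414 ± 122 CPM (SD, n = 3 each). The log2 fold change was 0.37 with a standard error of 0.12 and a 95% interval from 0.10 to 0.64, and edgeR's adjusted p was 0.0568. *HLA-C*, the classical heavy chain that is also the main ligand of killer cell immunoglobulin-like receptors, was at 709, 618 and 698 CPM in the controls and at 680, 686 and 818 CPM in the knockdown. Its groups overlapped, and its log2 fold change was 0.11 with an interval from -0.17 to 0.38 (edgeR adjusted p = 0.593). Within each library the log2 ratio of *HLA-C* to *HLA-B* was -0.71, -0.67 and -0.70 in the controls and -0.94, -1.02 and -0.92 in the knockdown, so these groups did not overlap. The difference of -0.27 had an exact two-sided permutation p of 0.1, the smallest that 3 against 3 libraries can give, and 0.25 after adjustment over the 10 ratios computed.

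*HLA-E* presents leader peptides of other class I molecules to the NKG2A receptors of natural killer cells. It was at 361, 372 and 347 CPM in the controls and at 437, 475 and 563 CPM in the knockdown. The controls lay close together and every knockdown library was above them, ASO_LINC#3 replicate 3 furthest. The means were 360 ± 12.6 and 492 ± 64.9 CPM (SD, n = 3 each), a log2 fold change of 0.45 with a standard error of 0.13 and a 95% interval from 0.17 to 0.73, which corresponds to 1.12-fold to 1.66-fold. Its adjusted p in edgeR was 0.0352, so *HLA-E* missed the threshold on both p and fold. The log2 ratio of *HLA-E* to *HLA-B* overlapped between the groups, with a difference of 0.07 (exact permutation p = 0.6). *HLA-F*, a non-classical heavy chain that can reach the surface without peptide, was at 30.6, 27.2 and 27.7 CPM in the controls and at 26.9, 26.2 and 38.8 CPM in the knockdown. Only ASO_LINC#3 replicate 3 exceeded the controls, and without it the log2 fold change moved from 0.09 to -0.10. The ratio of *HLA-F* to *HLA-B* also overlapped.

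Reads from one class I gene can match another, which limits these values. Of all runs of 75 bases in the transcript, the length of the reads, 0% of *HLA-B* and *HLA-F*, 1.98% of *HLA-C* and 2.30% of *HLA-E* were shared with another gene's transcript in the reference. The reference alleles need not be those of H226, and how reads of divergent alleles were placed was not analysed here.

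*B2M*, the light chain that every class I heavy chain needs, varied within each group more than between the groups. It was at 3856, 1222 and 2240 CPM in the controls and at 2163, 2616 and 1102 CPM in the knockdown. The highest control was 3.16 times the lowest, and the lowest of all 6 libraries was ASO_LINC#3 replicate 3. The coefficient of variation of the controls was 54.5%, above that of 99.03% of the 103 genes of like level, and in the knockdown it was 39.6%. The fitted log2 fold change of -0.32 had a 95% interval from -1.15 to 0.52 (edgeR adjusted p = 0.605). A fall to 0.451-fold and a rise to 1.43-fold both lie within that interval. Without ASO_CTRL replicate 1 the log2 fold change was 0.18. *B2M* had the lowest GC content of the members, 39.1%, and is often used as a reference transcript in RT-qPCR.

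Per kilobase of the annotated transcript, *B2M* was the most abundant member, at 2587 ± 1409 CPM per kb in the controls, followed by *HLA-B* at 711 ± 60.7, *HLA-C* at 438 ± 32.2 and *HLA-E* at 141 ± 4.93 (SD, n = 3). *TAP1* came next at 41.3 ± 0.897, then *HLA-F* at 19.2 ± 1.24, *TAPBP* at 19.1 ± 3.59, *TAP2* at 9.82 ± 0.698 and *ERAP1* at 4.10 ± 0.281 CPM per kb. The control ranges of *HLA-F* and *TAPBP* overlapped, and those of all other neighbours in this order did not. The cDNA was primed with oligo-dT, and how evenly reads covered the transcripts was not analysed here. The levels per kb of the 4 member heavy chains *HLA-B*, *HLA-C*, *HLA-E* and *HLA-F* summed to 1376, 1207 and 1346 in the controls and to 1481, 1554 and 1785 in the knockdown, so every knockdown library was above the controls. *B2M* per summed heavy chain was 2.97, 1.07 and 1.76 in the controls and 1.55, 1.79 and 0.655 in the knockdown, and the groups overlapped. *HLA-B* made up from 53.2% to 54.9% of the summed heavy chains in the controls and from 56.4% to 58.2% in the knockdown. These sums were formed after the values of single genes were known and are given as a description, with no test.

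**Figure D2:**
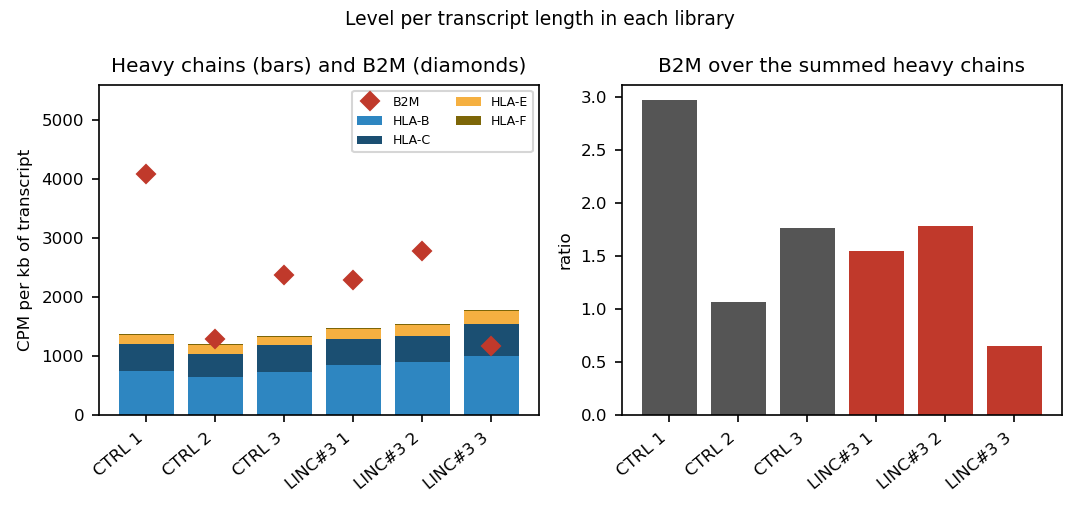
Left, CPM per kb of transcript of the 4 member heavy chains (stacked bars) and of *B2M* (diamonds) in each of the 6 libraries; right, the ratio of *B2M* to the summed heavy chains, both on linear axes from 0. The heavy chain sum runs from 1207 to 1785 while the ratio runs from 0.655 to 2.97 with overlapping groups.

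*TAP1* and *TAP2* form the transporter of peptides into the endoplasmic reticulum. *TAP1* was at 108, 112 and 113 CPM in the controls and at 94.2, 95.1 and 107 CPM in the knockdown. The groups did not overlap, but the highest knockdown library was close to the lowest control, and the log2 fold change was -0.17 with a 95% interval from -0.44 to 0.10 (edgeR adjusted p = 0.374). *TAP2* was at 55.0, 59.5 and 51.7 CPM in the controls and at 49.1, 47.6 and 65.9 CPM in the knockdown. ASO_LINC#3 replicates 1 and 2 were below all controls and replicate 3 was above them, and the log2 fold change was -0.04 with an interval from -0.38 to 0.31 (edgeR adjusted p = 0.895). The log2 ratio of *TAP1* to *TAP2* overlapped between the groups. The annotated span of *TAP1* lies wholly within that of *PSMB9* on the opposite strand, an overlap of 8608 bases. Of the 75-base runs of *TAP2*, 35.00% are shared, nearly all with a readthrough gene of the same strand. The strand setting of the counting is not given in the sources used here. Reads of *TAP1* and *PSMB9* in this overlap may therefore have been left out or moved.

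*TAPBP* encodes tapasin, which bridges TAP and the empty class I molecule. It was at 68.7, 52.5 and 76.8 CPM in the controls and at 57.8, 51.2 and 121 CPM in the knockdown. ASO_LINC#3 replicate 3 alone was above the controls, and the coefficient of variation of the knockdown group was 50.4%, higher than that of 98.89% of the 3437 genes of like level. The log2 fold change was 0.20 with a 95% interval from -0.44 to 0.83 (edgeR adjusted p = 0.678), and -0.28 without that library. *ERAP1*, the aminopeptidase that trims peptides to the length class I molecules bind, was at 19.4, 18.8 and 21.4 CPM in the controls and at 25.9, 25.3 and 14.1 CPM in the knockdown. Replicates 1 and 2 of the knockdown were above all controls and replicate 3 was below them. The log2 fold change of *ERAP1* was 0.15 with an interval from -0.33 to 0.63 (edgeR adjusted p = 0.667), and 0.36 without replicate 3. *ERAP1* overlaps *CAST* on the opposite strand.

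For 5 members the 3 knockdown libraries did not all lie on one side of the control mean. As log2 changes from the control mean, *HLA-F* was at -0.08, -0.12 and 0.44 in ASO_LINC#3 replicates 1, 2 and 3. The corresponding values were -0.17, -0.22 and 0.25 for *TAP2*, -0.17, -0.35 and 0.89 for *TAPBP*, and 0.38, 0.35 and -0.48 for *ERAP1*. *B2M* was at -0.02, 0.25 and -0.99. When each library's trend with GC content and transcript length was removed, the values became 0.08, 0.06 and 0.22 for *HLA-F* and -0.16, -0.29 and 0.64 for *TAPBP*. *ERAP1* was then at 0.24, 0.20 and -0.37, and *B2M* at -0.06, 0.14 and -0.78. *HLA-E* was positive in all 3 libraries before and after this step, at 0.28, 0.40 and 0.65 as counted and at 0.29, 0.45 and 0.42 corrected. *HLA-B* moved from 0.26, 0.35 and 0.50 to 0.43, 0.55 and 0.26. *TAP1* remained negative in each library, at -0.23, -0.22 and -0.05 as counted and -0.19, -0.13 and -0.32 corrected.

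**Figure D3:**
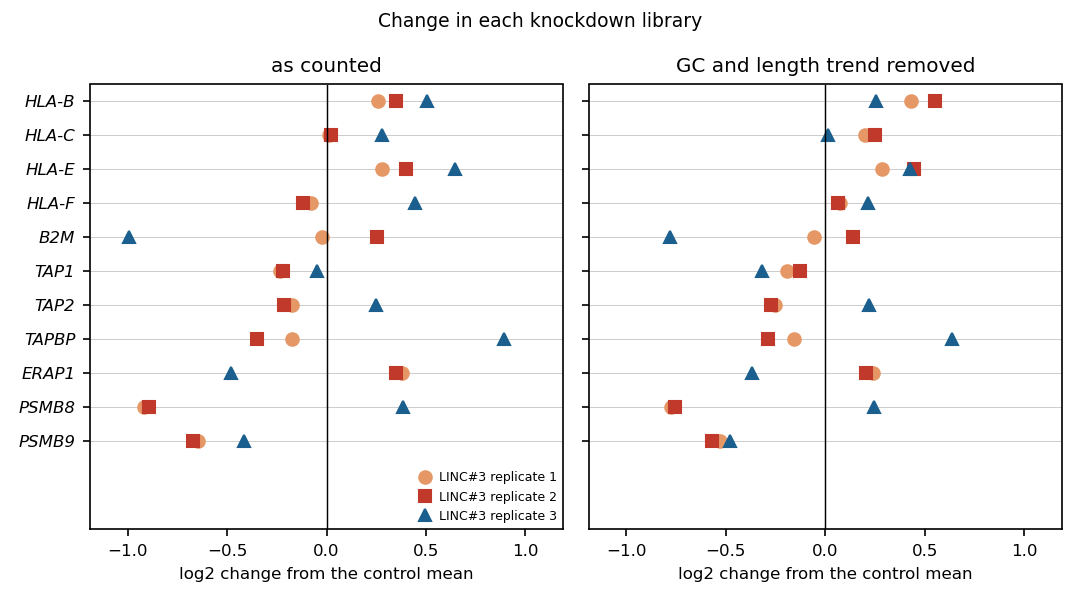
Log2 change of each ASO_LINC#3 library from the mean of the 3 controls for the 9 members and for the immunoproteasome subunits *PSMB8* and *PSMB9*, as counted (left) and after removal of each library's trend with GC content and transcript length (right). Replicate 3 lies on the other side of 0 from replicates 1 and 2 for *TAP2*, *TAPBP*, *ERAP1* and *PSMB8* in both panels.

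The remaining genes of the class I pathway were taken as 8 lists by known role, 90 names of which 68 were tested. Of these 68, 7 were called higher and 1 lower, where 4.91% of all tested genes were called higher and 2.63% lower. The median log2 fold change of the 68 was -0.08. Among 9 tested genes of peptide loading and endoplasmic reticulum folding, the median was -0.09 and 1 was called, *ERAP2*, the partner aminopeptidase of *ERAP1*. *ERAP2* was at 31.2, 26.2 and 26.1 CPM in the controls and at 53.9, 56.8 and 42.3 CPM in the knockdown. Every knockdown library was above every control, and *ERAP2* rose by a log2 fold change of 0.88 with a standard error of 0.16 (edgeR adjusted p = 0.00429). The log2 ratio of *ERAP1* to *ERAP2* was -0.68, -0.47 and -0.29 in the controls and -1.05, -1.16 and -1.56 in the knockdown. These groups did not overlap, with a difference of -0.78 (exact permutation p = 0.1, and 0.25 adjusted over the 10 ratios). *TAPBPL*, a tapasin-related peptide editor, had a log2 fold change of -0.19, and its ratio with *TAPBP* overlapped between the groups.

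Immunoproteasome subunits favour the cutting of peptides suited to class I. Their list also held proteasome activators, *PSME3* among them, and *POMP*, while the inducible subunit *PSMB10* was listed but not found by name. The median log2 fold change was -0.36 over the 6 tested genes. All 6 had a negative value, as did 7368 of all 14660 tested genes. Of the 6 listed genes edgeR called 0, with 2 at an unadjusted p below 0.05. DESeq2 and limma-voom each called 1, *PSMB9*, the inducible beta-1i subunit. *PSMB9* was at 135, 134 and 137 CPM in the controls and at 86.3, 84.9 and 101 CPM in the knockdown. The controls were nearly equal and all knockdown libraries lay below them, with a log2 fold change of -0.58, a standard error of 0.13 and an adjusted p of 0.0112 in edgeR, just above the threshold of 0.01. It passed the thresholds in 6 of 19 alternatives. *PSMB8*, the beta-5i subunit, was at 212, 248 and 211 CPM in the controls and at 118, 120 and 292 CPM in the knockdown. ASO_LINC#3 replicates 1 and 2 were far below the controls and replicate 3 was above them, so the fitted log2 fold change was -0.35 with an interval from -1.01 to 0.31. Without replicate 3, *PSMB8* was called with a log2 fold change of -0.91 and *PSMB9* with -0.66. *PSME1*, the alpha subunit of the PA28 activator, was at 484, 578 and 539 CPM in the controls and at 382, 388 and 471 CPM in the knockdown, which did not overlap (log2 fold change -0.37, edgeR adjusted p = 0.0765).

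Of the 3 constitutive catalytic subunits that the inducible ones replace, *PSMB7* was called higher, at 353, 386 and 367 CPM in the controls and at 525, 574 and 508 CPM in the knockdown. Its log2 fold change was 0.54 with a standard error of 0.12 (edgeR adjusted p = 0.0099), just under the threshold. It was called in 8 of 19 alternatives, and lost, among others, with no filter, a minimum of 10 counts, upper-quartile scaling, robust dispersion, glmTreat and 5 of the 6 fits without 1 library. *PSMB5* and *PSMB6* had log2 fold changes of -0.21 and -0.09 and overlapping groups. The log2 ratio of *PSMB9* to *PSMB6*, the inducible over the constitutive form, was -0.37, -0.81 and -0.52 in the controls and -0.98, -0.87 and -1.25 in the knockdown, without overlap (difference -0.47, exact permutation p = 0.1). The ratio of *PSMB8* to *PSMB5* overlapped, and that of *PSMB10* to *PSMB7* could not be computed because *PSMB10* was not found by name. The log2 ratio of *TAP1* to its divergently transcribed neighbour *PSMB9* was -0.32, -0.25 and -0.28 in the controls and 0.13, 0.16 and 0.08 in the knockdown. These groups did not overlap, with a difference of 0.41 (exact permutation p = 0.1, and 0.25 adjusted over the 10 ratios). The overlap of the annotated genes, with the strand setting not given, limits this ratio. Among 8 tested peptidases outside the endoplasmic reticulum 0 were called by edgeR, DESeq2 or limma-voom, and each tool gave 1 at an unadjusted p below 0.05. The smallest p-values there were those of *NPEPPS*, the puromycin-sensitive aminopeptidase, with a log2 fold change of 0.37, and of *LNPEP*, the insulin-regulated aminopeptidase of cross-presentation, with 0.44.

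**Figure D4:**
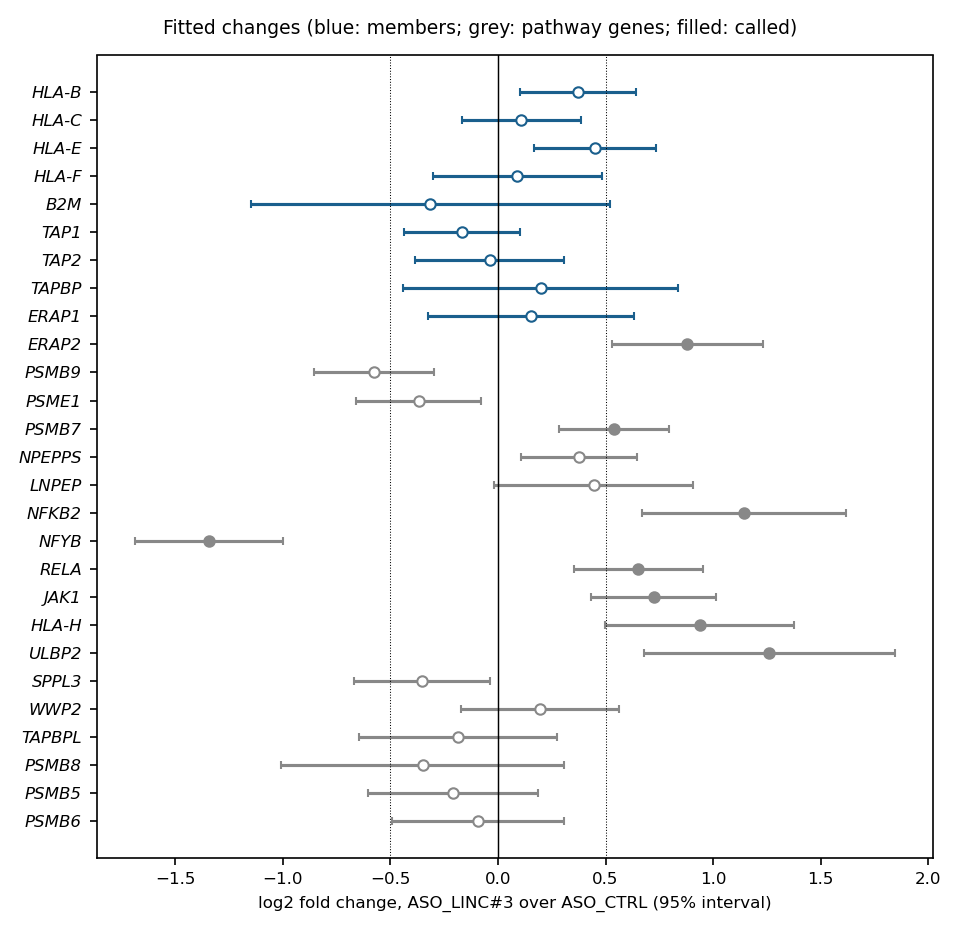
Log2 fold change of ASO_LINC#3 over ASO_CTRL with its 95% interval from edgeR for the 9 members (blue) and the named pathway genes (grey); filled points were called, and dotted lines mark a log2 fold change of 0.5 in either direction. All 9 members are open points, and *NFYB* is the filled point on the negative side.

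Of 18 tested factors that act on class I promoters, 2 were called higher and 1 lower, with a median log2 fold change of -0.13. The shares over all tested genes were 4.91% higher and 2.63% lower. *RELA*, the p65 subunit of NF-kB, was at 60.2, 49.9 and 57.4 CPM in the controls and at 82.9, 84.7 and 96.5 CPM in the knockdown (log2 fold change 0.65, edgeR adjusted p = 0.00873). *NFKB2*, which encodes the p100 precursor of p52, was at 13.1, 11.0 and 14.2 CPM in the controls and at 23.8, 24.3 and 38.2 CPM in the knockdown (log2 fold change 1.14, edgeR adjusted p = 0.00526). Both rose, with no overlap between the groups. *NFYB*, the B subunit of the CCAAT-binding factor NF-Y, fell from 59.1, 71.4 and 78.8 CPM in the controls to 25.7, 30.3 and 26.3 CPM in the knockdown. Its log2 fold change was -1.35 with a standard error of 0.16 (edgeR adjusted p = 0.000321). The other NF-Y subunits, *NFYA* and *NFYC*, each had a log2 fold change of -0.32 with overlapping groups and were not called. *NLRC5*, the transactivator of class I genes, was at 12.2 ± 2.45 CPM in the controls and 7.80 ± 2.51 CPM in the knockdown (SD, n = 3 each), with a log2 fold change of -0.65 that was not called (edgeR adjusted p = 0.114). *IRF1* had a log2 fold change of 0.24 and was not called. The factors other than *RELA*, *NFKB2* and *NFYB* were chosen for naming after their values were seen.

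Among 9 tested interferon receptors and proximal signalling genes, *JAK1*, the kinase shared by the type I and type II interferon receptors, was called higher. *JAK1* was at 44.0, 38.7 and 36.9 CPM in the controls and at 66.0, 65.5 and 66.2 CPM in the knockdown, a log2 fold change of 0.72 with a standard error of 0.13 (edgeR adjusted p = 0.0044). The median of this list was 0.02. Of 11 other class I and class I-like genes tested, 2 were called higher and 9 had a positive log2 fold change, with a median of 0.32. Over all 14660 tested genes 4.91% were called higher and 7292 had a positive value. *ULBP2*, a ligand of the NKG2D receptor of natural killer cells, rose from 3.37, 5.33 and 5.82 CPM to 12.8, 13.3 and 8.40 CPM (log2 fold change 1.26, edgeR adjusted p = 0.00887). The pseudogene *HLA-H* rose from 9.70, 9.46 and 9.83 CPM to 19.3, 21.9 and 13.8 CPM (log2 fold change 0.94, edgeR adjusted p = 0.00937), and 17.51% of its 75-base runs are shared with other class I genes. Of 4 tested genes of class I surface turnover 0 were called by edgeR, DESeq2 or limma-voom, and edgeR gave 1 at an unadjusted p below 0.05, with log2 fold changes of -0.35 for *SPPL3*, an intramembrane protease, and 0.19 for *WWP2*, a ubiquitin ligase. At an unadjusted p below 0.05, edgeR gave 25 of the 68 pathway genes and 4752 of the 14660 tested genes.

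The other genes between *HLA-F* and *TAPBP* on chromosome 6 give the setting of the 7 members located there. Of 88 tested, 2 were called higher and 4 lower, where 4.91% of all tested genes were called higher and 2.63% lower. The median log2 fold change of the 88 was -0.11. In the knockdown replicates 1, 2 and 3 their median change was -0.16, -0.24 and 0.15.

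Markers of cell types were summed in each library to check the label. Those of haematopoietic cells came to between 4.10 and 10.3 CPM in all 6 libraries, over the 4 of 9 listed markers found by name. The class II genes *CD74*, *HLA-DMA* and *HLA-DRB1*, 3 found of 12 listed, came to between 12.5 and 21.5 CPM. The squamous and epithelial markers *KRT5*, *KRT6A*, *KRT8*, *KRT18* and *KRT19* summed to between 8178 and 8582 CPM in the controls, and to 5123, 4987 and 8744 CPM in the 3 knockdown libraries. Most of this was *KRT8*, *KRT18* and *KRT19*, which simple epithelia and mesothelium also express. *KRT6A* had at most 14 counts in a library. Of 11 listed markers 5 were found among the gene names counted, and *TP63*, *SOX2*, *KRT14*, *DSG3*, *EPCAM* and *CDH1* were not. Of the squamous markers only *KRT5* was thus well counted, and 1 gene cannot settle the label. *KRT5* was at 94.4, 117 and 98.2 CPM in the controls and at 66.6, 62.6 and 77.8 CPM in the knockdown. These groups did not overlap (log2 fold change -0.58, edgeR adjusted p = 0.0192). DESeq2 called *KRT5* lower, while edgeR and limma-voom did not call it. All 5 listed mesothelial markers were found by name, and they summed to between 778 and 973 CPM in the controls. In the knockdown they summed to between 253 and 371 CPM, *CALB2* and *LRRN4* being called lower. With markers of both kinds present, these sums do not decide between a squamous and a mesothelial label. *COL1A1*, *COL3A1* and *THY1*, the 3 of 7 listed fibroblast markers found by name, summed to between 388 and 486 CPM and between 220 and 248 CPM. The part of these shifts in the values of the class I genes was not tested.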

How the data were processed

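RNA-seq libraries of H226 cells transfected with ASO_CTRL or ASO_LINC#3 were compared, 3 per condition, with groups taken from the sample labels. Per the labels and the study's methods, single reads of 75 bp were aligned to hg19 with STAR, and the authors deposited the unnormalized count of reads for each gene name, in whole numbers. The counting tool, annotation and strand setting are not given in the sources used here. The 4 totals of reads assigned to no gene, from 24.84% to 28.08% of each library, entered neither library sizes nor tests. The table held 0 other columns of per-sample values.

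Counts were analysed in R 4.3.3 with edgeR 4.0.16 (filterByExpr, TMM scaling, quasi-likelihood F-test, no replicate block), and p-values were adjusted over all 14660 tested genes by the Benjamini-Hochberg method. CPM were computed with TMM library sizes. For changes of a single library, log2 CPM was formed with a prior count of 2 and the control mean subtracted. Ratios were compared with a two-sided exact permutation test. The edgeR test was run on simulated data first. It called 66 of 100 genes with a simulated log2 change of 1 in either direction, and 98 of 100 with a change of 2. The simulation gave all genes the common dispersion and held no trend with GC content, and smaller changes were not simulated. The common biological coefficient of variation was 0.159. The 9 members and the gene lists were chosen with earlier results of these data known. The text names all members, in each list the genes called or otherwise those with the smallest p-values, and the partners of the ratios; exceptions are marked. Alternatives were other filters and scalings, DESeq2 1.42.0, limma-voom (limma 3.58.1), robust dispersion, an adjusted p of 0.05, glmTreat, a replicate block and leaving out each library. Removing the trend with GC content and transcript length, with and without the block, was chosen after seeing the data. It used splines of 5 degrees of freedom and covered 87.2% of the tested genes. GENCODE genes lifted to GRCh37 gave positions, lengths and GC content (13370 names matched directly, 970 by a synonym). Some genes of the lists are not reported here by name.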

Additional observations from a re-analysis of the deposited data

How the results depend on the processing

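The number of class I members called was 0 in all 19 alternatives, in either direction. Of 171 fold changes of members under alternatives, 165 kept their sign and their side of the threshold and 6 changed sign, each in a fit without 1 library. Fits without 1 library each gave log2 fold changes from -0.63 to 0.18 for B2M, from -0.19 to 0.048 for TAP2, from -0.10 to 0.19 for HLA-F, from -0.28 to 0.42 for TAPBP and from -0.30 to 0.035 for PSMB6. Pathway genes called higher, 7 as reported, ranged from 0 to 9 in these fits, and those called lower, 1 as reported, from 1 to 6. All genes called, 1106 as reported, ranged from 359 without ASO_CTRL replicate 3 to 2616 without ASO_LINC#3 replicate 3. NFYB was called in 6 of these 6 fits and NFKB2 in 2. ERAP2, PSMB7, RELA, JAK1, HLA-H and ULBP2 were each called in 1, the fit without ASO_LINC#3 replicate 3. Pathway genes called lower numbered 2 with upper-quartile scaling, DESeq2 and limma-voom, 4 at an adjusted p below 0.05 and with the correction for GC content and length, and 3 with that correction and the replicate block. Called higher were 0 with glmTreat, 5 with upper-quartile scaling and with at least 10 counts in every library, both without PSMB7 and HLA-H, and 6 with no filter and with robust dispersion, both without PSMB7. All genes called numbered 2465 at an adjusted p below 0.05, 384 with glmTreat and 1700 with the GC and length correction. With the replicate block alone, 656 genes were called and 1 pathway gene was called higher, so ERAP2, PSMB7, RELA, JAK1, HLA-H and ULBP2 were no longer called. Deviations of same-numbered libraries from their group means correlated at 0.059, -0.15 and -0.18. With 3 libraries a group these values cannot decide whether the numbers pair the samples, and the fit as reported used no block. The cause of the shifts between alternatives was not tested. With 3 libraries a group, the interval of B2M held both a fall and a rise, and the smallest change that could have been detected was not computed.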
